A study of Drosophila melanogaster with 2 samples.

Results

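The genes described here are the small nuclear RNA (snRNA) and small nucleolar RNA (snoRNA) genes of Drosophila melanogaster, read against the binding sites of the zinc finger protein CG18011. All genes of biotype snoRNA or snRNA on the main chromosome arms of the Ensembl dm6 annotation were taken, which gave 301 of 18164 annotated genes. Of these 32 were snRNA genes and 269 were snoRNA genes. Chromatin had been collected from whole embryos of mixed sex, 0 to 24 h old, of a transgenic line that stably expresses CG18011 with GFP fused to its C terminus. It was sheared by sonication to 200 to 800 bp and precipitated with an antibody against GFP. There was 1 group, made up of biological replicates 1 and 2 with 1 library each. A library mixes every tissue and stage of the embryo, and no control library was analysed here. The design therefore allows comparisons between places in the genome and not between treatments.

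snRNAs are the RNA cores of the spliceosome, with U1, U2, U4, U5 and U6 in the major form and U11, U12, U4atac and U6atac in the minor form, while U7 acts in histone mRNA 3' end processing and 7SK holds the elongation kinase P-TEFb inactive. Their genes are short and carry their own promoters. In flies these promoters are built around the proximal sequence element A (PSEA), which is read by the SNAPc complex, and the genes of U6 and 7SK, transcribed by RNA polymerase III, add a TATA box. snoRNAs guide the modification of ribosomal RNA, those of the box C/D class 2'-O-methylation and those of the box H/ACA class pseudouridylation, and the related scaRNAs guide the modification of snRNAs. Most fly snoRNAs are processed out of the introns of host genes, many of which encode ribosomal proteins or are noncoding U snoRNA host genes (Uhg), so that their transcription starts at the promoter of the host.

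A gene was counted as bound when the summit of a peak on the list that passed the authors' cut on the irreproducible discovery rate (IDR) lay within 500 bp of its start. That list is made up of the 3290 strongest peaks of the 30000 on the relaxed list of the pooled libraries. Signal is the value of the authors' peak caller. It ran from 178.9 to 70679 on the IDR list with a median of 279.9, and the relaxed pooled list reached down to 38.5. The strongest peak lay on CG18011 itself. The signals of replicate 2 were larger, with a median of 222.8 over the IDR peaks against 64.6 in replicate 1, so relative signal below is the signal of a library divided by this median. Read numbers are not stated, so the depth behind a peak is unknown. Of the 301 genes, 17 were bound (5.65%, exact 95% binomial interval 3.32 to 8.89), through 13 different peaks, and 128 had a summit on the pooled list. Of all annotated genes 14.8% were bound and 47.9% had a pooled summit.

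**Figure D1:**
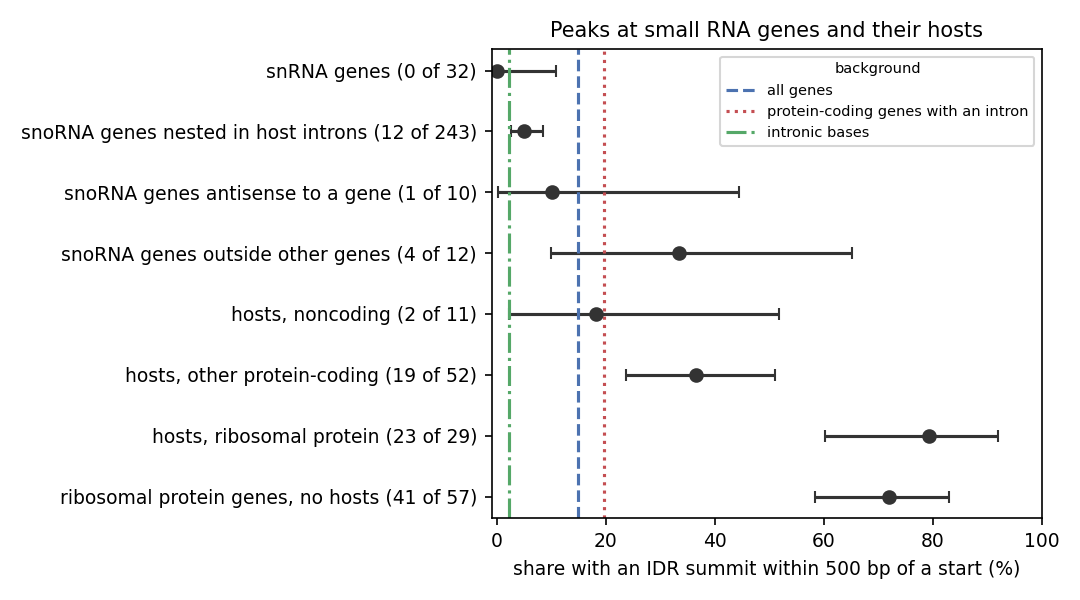
Share of genes with an IDR summit within 500 bp of a start site, in percent, for classes of snRNA and snoRNA genes, their host genes and the other ribosomal protein genes. Points are shares, bars are exact 95% binomial intervals and vertical lines are backgrounds; snRNA genes are at 0 of 32 and ribosomal protein hosts at 23 of 29.

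The sequence before the snRNA genes is shown first, because at most of these genes it carries a promoter element, the PSEA core. The PSEA core, searched as TTCCCAA on both strands from 250 bases before to 50 after the start, was found at 26 of 32 snRNA genes, against 5.3% of all promoters of that length. At each of the 26 it stood on the strand of the gene, 55 to 61 bp upstream of the start with a median of 58. At 5 of the others (LU, U2:38ABb, U4:25F, U6:96Ab and U6:96Ac) a run with 1 changed letter, AATTCTCAA, stood at a similar place, and 7SKb had neither. The stretches below run from 75 bases before the annotated start to 5 after it, 5′ to 3′ on the strand of the gene, on the RefSeq sequence of Release 6, which is dm6. Capitals mark TTCCCAA and the TATA letters TATAAA or TATATA. They show genes of the major spliceosome, of U7, of 7SK and of the minor spliceosomal U6atac. The last 4 hold TATA letters.
snRNA:U1:95Ca, chr3R:23859626-23859705, minus strand: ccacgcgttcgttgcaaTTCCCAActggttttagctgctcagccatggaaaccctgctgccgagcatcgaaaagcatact
snRNA:U2:34ABb, chr2L:13215764-13215843, plus strand: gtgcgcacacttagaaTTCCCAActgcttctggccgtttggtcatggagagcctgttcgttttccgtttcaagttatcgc
snRNA:U4:39B, chr2L:21215174-21215253, minus strand: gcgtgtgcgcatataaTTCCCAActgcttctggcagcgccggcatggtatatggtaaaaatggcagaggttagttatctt
snRNA:U5:63BC, chr3L:3090726-3090805, plus strand: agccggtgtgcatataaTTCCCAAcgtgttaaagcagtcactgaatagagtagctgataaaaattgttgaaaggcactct
snRNA:U7, chr3L:3593748-3593827, plus strand: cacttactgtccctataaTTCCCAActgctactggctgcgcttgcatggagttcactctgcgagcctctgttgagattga
snRNA:7SKa, chr3R:7474992-7475071, minus strand: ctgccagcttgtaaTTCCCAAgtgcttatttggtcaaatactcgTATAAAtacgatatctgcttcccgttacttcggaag
snRNA:U6:96Aa, chr3R:24556013-24556092, plus strand: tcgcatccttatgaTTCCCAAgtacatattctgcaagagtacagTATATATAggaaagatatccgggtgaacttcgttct
snRNA:U6:96Ac, chr3R:24557140-24557219, plus strand: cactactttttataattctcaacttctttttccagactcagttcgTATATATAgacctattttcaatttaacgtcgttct
snRNA:U6atac, chr2L:8389649-8389728, plus strand: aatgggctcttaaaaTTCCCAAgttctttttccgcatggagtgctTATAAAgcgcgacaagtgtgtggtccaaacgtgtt

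snRNA genes were not bound at the threshold of the IDR list. An IDR summit lay within 500 bp of 0 of 32 genes, which allows a share of up to 9.375% by a limit of 3 counts and up to 10.9% by the exact 95% binomial interval. The share was 14.8% of all genes and 4.79% of other noncoding genes (ncRNA, tRNA and rRNA). The nearest IDR summit of any snRNA gene was 836 bp away, from 7SKa, and the median distance was 9714 bp. By position 15 of the genes lay outside other genes, 6 lay inside a gene of the other strand and 11 lay in an intron of a gene on the same strand. The 7 genes that hold these 11 are Atg18b, CG34355, Eip63E, Esyt2, FASN2, cno and sick. Of them cno and sick were bound at a start site, with pooled signals of 203.7 and 232.8, the summit at sick being nearer to the start of fs(2)ltoPP43. FASN2 and Atg18b had no pooled summit.

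Below the threshold, 13 of 32 snRNA genes (40.6%, exact 95% binomial interval 23.7 to 59.4) had a summit on the pooled list, against 47.9% of all genes. Their signals ran from 40.0 to 128 with a median of 79.9, so that the strongest reached 71.6% of the weakest IDR peak. It lay at U1:95Ca, a gene of the U1 RNA that pairs with the 5' splice site, where replicate 1 gave a signal of 28.6 and replicate 2 one of 98.8. Its relative signal was 0.443 in replicate 1 and 0.444 in replicate 2. The peak near U6:96Ab and U6:96Ac, copies of the catalytic U6 RNA, was shared by both genes and had a pooled signal of 124.5 and relative signals of 0.318 and 0.435. At 7SKa the pooled signal was 123 and the relative signals were 0.283 and 0.436. These lay below the library median in both libraries. The U5 gene U5:63BC had a pooled signal of 117.6 and relative signals of 0.427 and 0.432, close to those of U1:95Ca in both libraries.

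The other snRNA genes were weaker, and several had a peak in 1 library alone. U1:21D had a pooled signal of 85.5 with relative signals of 0.338 in replicate 1 and 0.261 in replicate 2, at a peak that is also within 500 bp of scaRNA:MeU1:95C-A24. U2:34ABa, a gene of the U2 RNA that pairs with the branch point, had 64.3 with 0.178 and 0.241, and its summit was 135 bp from the start of CG15482. At the remaining 6 genes with a pooled summit a covering peak was found in replicate 2 and not in replicate 1. Their pooled signals were 79.9 at U4:39B, 78.7 at U2:34ABb, 52.5 at the minor spliceosomal U12, 49.0 at U5:35D, 43.5 at U4:38AB and 40.0 at U6:96Aa. The replicate 2 peak over the U5:35D summit has a relative signal of 0.652, but the strongest one with its own summit within 500 bp of the gene has 0.214. Counting any library peak with its own summit in the window, 9 snRNA genes had one in replicate 1, 13 in replicate 2 and 7 in both. By family, 3 of 3 U6 genes, 2 of them through 1 peak, 2 of 3 U4, 2 of 5 U1, 2 of 6 U2 and 2 of 7 U5 genes had a pooled summit, and the genes of U11, U4atac, U6atac and U7 had none.

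The pooled summits at snRNA genes lay mostly downstream of the start. They were downstream at 10 of the 13 genes and upstream at 3, with a median of 132 bp downstream, and 7 were inside the RNA itself. The shared U6 peak counts on both sides, past U6:96Ab and before U6:96Ac. At U4:39B the summit was 54 bp upstream of the start, on the PSEA core, which begins 59 bp upstream. Each of these pooled peaks is 416 bp wide with its summit at the middle, so the offsets are coarse and do not place binding on an element. The PSEA core was present at 11 of the 13 genes with a pooled summit, and at 26 of all 32. Several copies of 1 RNA have the same sequence: U1:21D, U1:95Ca and U1:95Cb are identical over 164 bases, U2:34ABb and U2:34ABc over 192, and the 3 U6 genes over 107. For the U5 genes compared the shares were lower: U5:34A was 88.2% identical to U5:38ABa and 38.6% to U5:38ABb. Only copies of equal length were compared, base by base from the annotated start. The RNA of U5:34A begins with tactc and that of U5:38ABb with actct, 1 base on. What this offset does to the 38.6% was not tested. Of the 50-base words within 500 bp of a snRNA start, a median of 94.8% occurred once in the genome. The lowest share was 46.85%, at U2:38ABa. How reads from repeated copies were placed is not stated, and the part of this in the low signals was not tested.

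**Figure D2:**
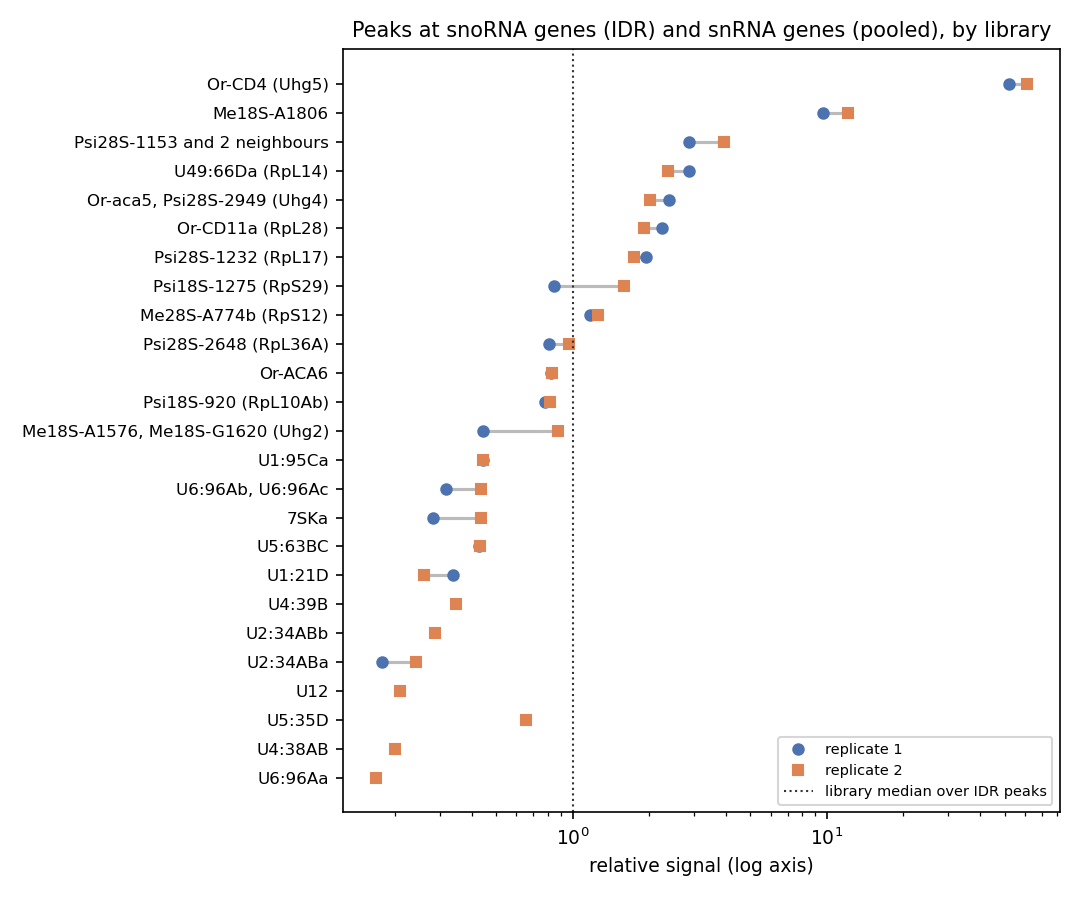
Relative signal in each library, on a log axis, of the 13 IDR peaks at snoRNA genes (upper rows, with the host gene in brackets where nested) and the 12 pooled peaks at snRNA genes (lower rows). Circles are replicate 1, squares replicate 2, and the dotted line is the library median over IDR peaks, which no snRNA gene reached; the square of U5:35D belongs to a peak whose own summit is elsewhere.

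The strongest summit that lay on an snoRNA itself was that of Me18S-A1806, a box C/D snoRNA gene named for a methylated position of 18S rRNA. The gene spans chr3L:7639717-7639794 on the plus strand, outside any other gene. Its peak covered chr3L:7639244-7640242 with the summit 2 bp downstream of the gene start, 727 bp from the nearest start site of another gene, Urm1. Replicate 1 gave a signal of 623.7 and replicate 2 one of 2705. The pooled signal of 3300 ranked 149 of 3290. Both libraries placed it well above their median, and its relative signal was 10.9 ± 1.75 (SD, n = 2). The PSEA core and the TATA letters were both found upstream, at 66 and 36 bp, and are in capitals here:
snoRNA:Me18S-A1806, chr3L:7639642-7639721, plus strand: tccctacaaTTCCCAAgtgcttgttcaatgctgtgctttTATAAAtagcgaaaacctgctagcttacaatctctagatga

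From the first base of the PSEA core to that of the TATA letters the distance was 30 bp at Me18S-A1806, as it was at 7SKa, U6:96Aa and U6atac, whose sequences stand above. This arrangement, TTCCCAA with TATAAA or TATATA beginning 30 bp on, was noticed in these promoters and then searched on the gene strand in all 18164. It was found in 5, a share of 0.0275%: these 4 and RNaseMRP:RNA, the RNA of the RNase MRP ribonucleoprotein. Among the 13945 protein-coding genes it was found in 0. Runs with a changed letter were not part of this search. At U6:96Ac the run TTCTCAA also stands 30 bp before the TATA letters, and at U6:96Ab the distance is not 30 bp. Of the 5 genes Me18S-A1806 was bound, RNaseMRP:RNA, 7SKa and U6:96Aa had a pooled summit only, and U6atac had no summit. A match in these letters is a description and does not show which factor acts there.

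**Figure D3:**
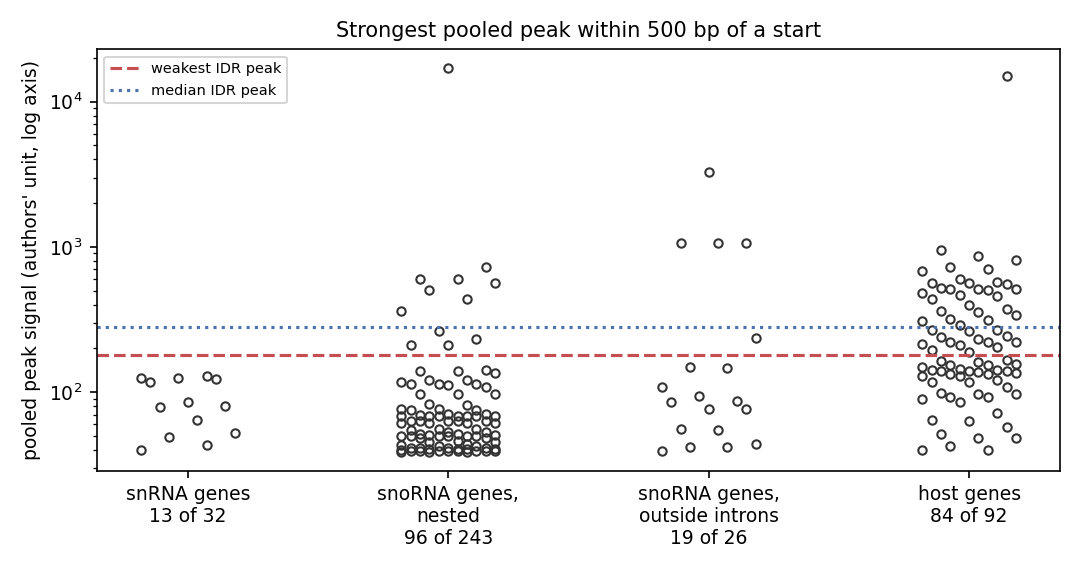
Signal of the strongest pooled peak within 500 bp of a start, in the authors' unit on a log axis, for each gene that has one (numbers under the axis). The dashed line is the weakest IDR peak and the dotted line the median IDR peak; the 13 snRNA genes lie between 40.0 and 128, all under the dashed line.

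snoRNA genes outside host introns numbered 26, of which 12 lay outside any other gene, 10 lay inside a gene of the other strand and 4 lay within a gene of the same strand but not in an intron. Bound genes were 5 of 26 (19.2%, exact 95% binomial interval 6.56 to 39.4), beside 14.8% of all genes, and they share 3 peaks. A pooled summit was found at 19 of 26 (73.1%, exact 95% binomial interval 52.2 to 88.4), beside 47.9% of all genes, through 17 different peaks. Among them were all 12 that lie outside any other gene, through 10 peaks. Beside the peak of Me18S-A1806 on 3L, described above, there was a bound cluster on 2R. The box H/ACA gene Psi28S-1153 and 2 neighbouring snoRNA genes of no assigned box class, FBgn0263472 and FBgn0263459, lie one after the other on the minus strand and share a peak at chr2R:13557286-13557864. Its summit lay inside Psi28S-1153 and 974 bp from the nearest other start site, that of CG13334. The signal was 185.4 in replicate 1. In replicate 2 it was 878.6, the pooled signal was 1055, and the relative signal was 3.41 ± 0.758 (SD, n = 2). The third peak lay 448 bp upstream of Or-ACA6, a box H/ACA gene antisense to egr, the fly tumour necrosis factor gene. Its pooled signal of 237.5 was below the IDR median, with relative signals of 0.822 and 0.827.

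The remaining genes outside introns had pooled summits below the IDR threshold. Psi18S-301 had a pooled signal of 148.5, with relative signals of 0.167 in replicate 1 and 0.642 in replicate 2, so that the libraries differed by more than the lower value. CG43051-a, inside CG43051, had 146 with a peak in replicate 2 alone. Psi18S-176 had 108.8 with relative signals of 0.291 and 0.411, Psi28S-3342 had 94.1 with a relative signal of 0.312 ± 0.0673 (SD, n = 2), and Or-CD14 had 87.2 with a peak in replicate 2 alone. The 3 genes of U3, the snoRNA that acts in cleavage of the ribosomal RNA precursor and has promoters of its own, were below the IDR list: U3:54Ab had a pooled signal of 76.8, U3:9B 43.7 and U3:54Aa 42.0, each with a covering peak in 1 library. The U3:54Ab summit was 89 bp from the start of tRNA:Leu-AAG-1-3. The PSEA core stood 59 bp upstream of U3:9B. It was found in 3 of the 26 promoters of snoRNA genes outside introns and in 11 of 243 nested ones, 11.5% and 4.53%, against 5.3% of all promoters. The 16 scaRNA genes, 14 of them nested in host introns and 2 outside, are counted together here. Of them 0 were bound, which allows up to 18.8% by the limit of 3 counts and up to 20.6% by the exact interval. That range holds the 2.2% of intronic bases within 500 bp of an IDR summit. A pooled summit was found at 1 of the 16, which lies outside introns.

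The 243 snoRNA genes nested in host introns were rarely bound at their own position. IDR summits lay within 500 bp of 12 of them (4.94%, exact 95% binomial interval 2.58 to 8.47), beside 2.2% of intronic bases. A pooled summit was found for 96 (39.5%), beside 21.4% of intronic bases. Bound nested genes were mostly near a start site, as intronic bases near a summit were. Of the 98 nested genes at most 1000 bp from a start site 11 were bound (11.2%, exact 95% binomial interval 5.74 to 19.2). Of the 145 farther away 1 was (0.690%, 0.0175 to 3.78). Intronic bases within and beyond 1000 bp of a start site were within 500 bp of an IDR summit in 7.15% and 1.33% of cases. Both shares lie inside these intervals. Of the nested box C/D genes 6 of 98 were bound and of the box H/ACA genes 6 of 105.

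Nearly all of the IDR summits near nested genes lay at the start site of the host, while most pooled summits did not. Of the 96 nested genes with a pooled summit, 27 had it within 500 bp of a host start site. Of the 12 with an IDR summit, 11 had it there, and at 11 the host start was nearer to the summit than the snoRNA gene. These 11 genes belong to 9 hosts. In order of signal these were RpL14 with U49:66Da (728), Uhg4 with Psi28S-2949 and Or-aca5 (600.2), RpL28 with Or-CD11a (565.5), RpL17 with Psi28S-1232 (503), RpS29 with Psi18S-1275 (437), RpS12 with Me28S-A774b (362), RpL36A with Psi28S-2648 (262), RpL10Ab with Psi18S-920 (231.9) and Uhg2 with Me18S-A1576 and Me18S-G1620 (211.6). The summits lay 3 to 79 bp from the host start and 93 to 491 bp from the snoRNA gene. At RpS29 the relative signals were 0.845 in replicate 1 and 1.60 in replicate 2, and at Uhg2 they were 0.445 and 0.875. The edge of the window cut through this series: Or-aca5 was 491 bp from its summit and Or-CD13, just outside, was 549 bp from that of Or-ACA6, with Psi18S-1295 in RpS20 at 551 bp.

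The exception was the strongest peak at any of the 301 genes. Or-CD4 is a box C/D gene in the last part of Uhg5, on 2R. The peak at chr2R:14624343-14625419 had its summit 467 bp downstream of the start of Or-CD4, 222 bp past the annotated end of Uhg5 and 3119 bp from the Uhg5 start, outside any annotated gene. Its signals were 3351 in replicate 1 and 13664 in replicate 2. The pooled signal of 16945 ranked 48, and the relative signal was 56.6 ± 6.66 (SD, n = 2). The start site of Uhg5 itself had a pooled signal of 96.7, below the IDR list. Of the 10 peaks near nested genes this one stood apart by more than the spread between the libraries, the next being RpL14 at 2.62 ± 0.364 (SD, n = 2).

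The host genes were bound far more often than the genes in their introns. Of the 92 hosts of nested snoRNA genes 44 had an IDR summit at a start site (47.8%, exact 95% binomial interval 37.3 to 58.5) and 84 a pooled summit, beside 17.9% and 53.6% of all protein-coding genes. Of protein-coding genes with an intron, as hosts must have, 19.6% were bound. Bound hosts hold 110 of the nested genes, and at 99 of those no IDR summit lay within 500 bp of the snoRNA gene. A gene with several start sites has more chances of a nearby summit. Of hosts with a single start site 19 of 46 were bound, and of the protein-coding ones 17 of 37 (45.95%), beside 15.2% of all protein-coding genes with an intron and 1 start site.

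Ribosomal protein genes made up much of this count. Among hosts, 23 of 29 ribosomal protein genes (79.3%, exact 95% binomial interval 60.3 to 92.0), 19 of 52 other protein-coding genes (36.5%, 23.6 to 51.0) and 2 of 11 noncoding genes (18.2%, 2.28 to 51.8) were bound. Some noncoding hosts overlap a protein-coding host and hold snoRNA genes counted there too. These pairs are Uhg7 and RpL23A, lncRNA:CR42491 and RpL22, lncRNA:CR45184 and Sf3b3, and CR33222 and RpS6. Of ribosomal protein genes that host no snoRNA gene 41 of 57 were bound (71.9%, 58.5 to 83.0), an interval that overlaps that of the hosts. Other protein-coding hosts with 1 start site were bound in 6 of 24 cases (25.0%, 9.77 to 46.7), beside 15.2%. Hosts with 1 nested gene were bound in 23 of 53 cases and hosts with more in 21 of 39 (43.4% and 53.8%), with overlapping intervals. Members of a list share peaks and neighbours, and these intervals cover counting error only.

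The stretches below are the 50 bases on each side of the summit of RpS4, the strongest host peak, and of RpL28 and RpL13A, both among the 12 strongest, with 5 and 2 nested box C/D genes. They are on the forward strand of dm6, and capitals mark the DNA replication-related element (DRE) core TATCGATA and the word AGCTTTTG or its reverse complement CAAAAGCT, which is taken up in the closing observations.
RpS4, chr3L:13041626-13041726, plus strand: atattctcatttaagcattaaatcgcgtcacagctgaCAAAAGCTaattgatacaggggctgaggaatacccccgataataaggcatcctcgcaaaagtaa
RpL28, chr3L:3222966-3223066, plus strand: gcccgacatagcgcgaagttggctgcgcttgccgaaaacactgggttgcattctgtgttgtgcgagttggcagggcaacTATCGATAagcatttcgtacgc
RpL13A, chr3R:5624371-5624471, plus strand: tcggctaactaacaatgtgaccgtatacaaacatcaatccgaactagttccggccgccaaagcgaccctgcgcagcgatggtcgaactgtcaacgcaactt

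RpS4, which encodes a protein of the small ribosomal subunit and holds 3 box H/ACA genes, had the strongest host peak by a wide margin. Its signals were 3054 in replicate 1 and 12147 in replicate 2 at a summit 80 bp upstream of the start and 1091 bp from the nearest snoRNA gene. The pooled signal was 15122, the relative signal 50.9 ± 5.10 (SD, n = 2), and RpS4 was the single host above 10 times the IDR median. The next was Stt3A, which encodes a catalytic subunit of oligosaccharyltransferase, at 3.35 ± 0.0635 (SD, n = 2), with its summit nearer to the start of bves. Msp300, a nesprin gene, followed at 2.89 ± 0.415 and CG1142 at 2.89 ± 0.163 (SD, n = 2 each). RpL14 had 2.62 ± 0.364, RpL23A 2.58 ± 0.315, RpL13A 2.43 ± 0.0459 and the noncoding Uhg4 2.21 ± 0.273 (SD, n = 2 each). RpL28, Irbp, RpL11 and RpL30 lay between 2.07 and 1.96. RpS4 stood apart from all of these. Stt3A and Msp300 differed by slightly more than the SD of Msp300, and from Msp300 to RpL30 neighbours in this order differed by less than the larger SD of the pair.

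**Figure D4:**
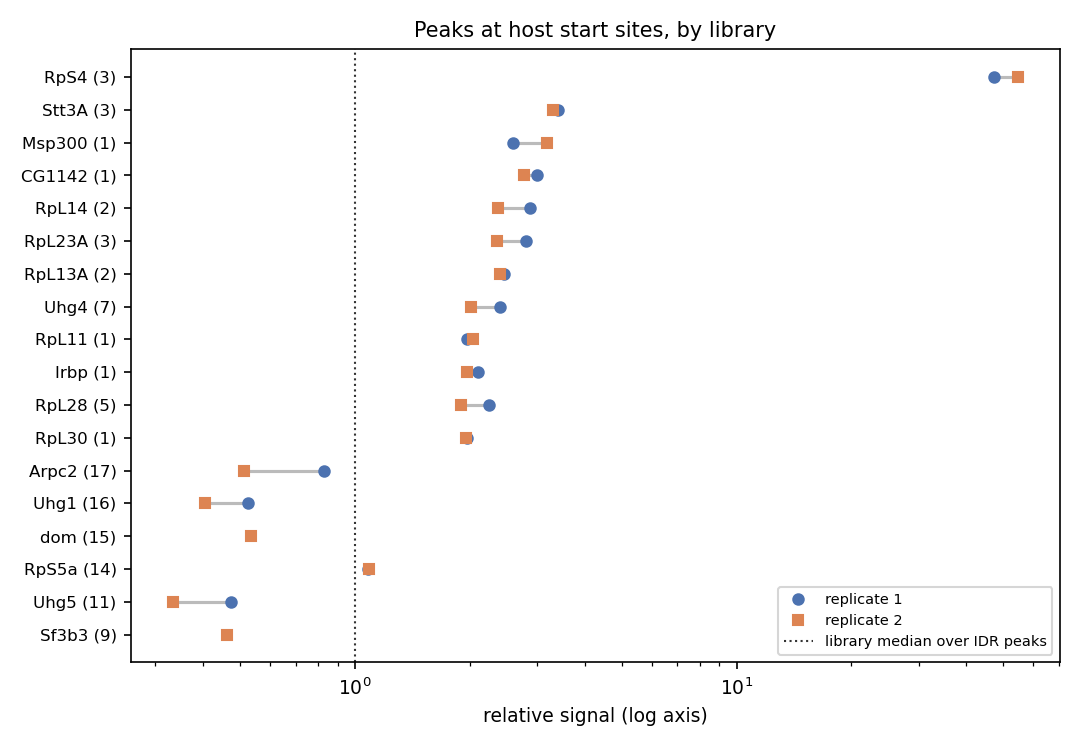
Relative signal in each library, on a log axis, at the start sites of the 12 strongest hosts (upper rows) and the 6 hosts with the most nested genes (lower rows), with the number of nested genes in brackets. Circles are replicate 1, squares replicate 2, and the dotted line is the library median over IDR peaks; of the lower 6 rows RpS5a alone lies above it.

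The hosts that hold the most snoRNA genes were not those with the strongest peaks. Arpc2, a subunit gene of the Arp2/3 complex, holds 17 box H/ACA genes and had no IDR summit. Its pooled signal was 164.7, with relative signals of 0.830 in replicate 1 and 0.512 in replicate 2, at a summit nearer to the start of CG10949. Uhg1 holds 16 and had 134 with relative signals of 0.523 and 0.404. dom, which encodes a chromatin remodelling ATPase, holds 15 and had 141 with a peak in replicate 2 alone. RpS5a holds 14 box H/ACA genes and was the bound one, at a pooled signal of 315.8 and a relative signal of 1.09 ± 0.00489 (SD, n = 2). Uhg5 with 11 and Sf3b3, a gene of the SF3b complex of U2 snRNP, with 9 had pooled signals of 96.7 and 107.8. Of the 11 noncoding hosts 2 were bound (18.2%, exact binomial interval 2.28 to 51.8), beside 4.79% of ncRNA, tRNA and rRNA genes. The interval holds that share and the 17.9% of all protein-coding genes, so the count does not set noncoding hosts apart. Of the Uhg genes Uhg4 and Uhg2 were bound, Uhg8, Uhg3, Uhg1 and Uhg5 had pooled summits only, and Uhg7 had none.

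Summits at bound hosts were close to the start and upstream of it. The median distance was 57.5 bp, with 38 summits upstream and 6 downstream, while the median distance to the nearest nested snoRNA gene was 993 bp. Ribosomal protein hosts were the tightest, with a median of 38 bp and at most 122 bp, and at all 23 the host was the gene with the nearest start site. At other protein-coding hosts the median was 171 bp, and at 11 of 19 the host had the nearest start. Stt3A, Irbp, anchor, kra, skd, gcl and hts were among those whose summit was nearer to another gene.

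**Figure D5:**
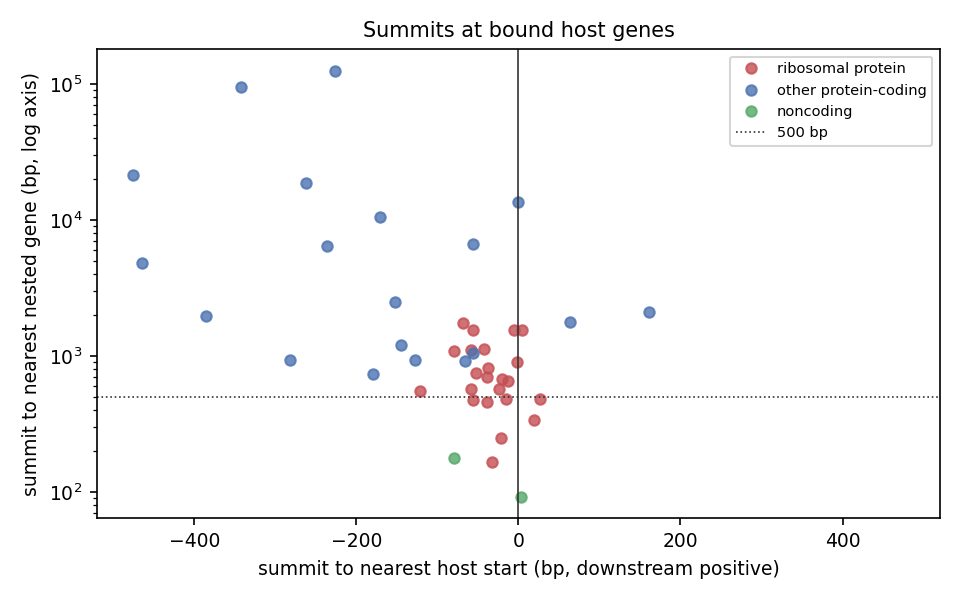
Distance in bp from the summit to the nearest host start (x axis, downstream positive) and to the start of the nearest nested gene (y axis, log scale) for the 44 bound hosts. Points are hosts by kind and the dotted line is 500 bp; ribosomal protein hosts lie within 122 bp of the start, and 9 hosts have a nested gene within 500 bp of the summit.

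The PSEA core was in 8 of 92 host promoters (8.7%), and bound and unbound hosts held the DRE at nearly equal shares. The DRE core TATCGATA, searched on both strands from 250 bases before to 50 after the outermost start, was in 19 of 92 host promoters (20.7%) against 9.36% of protein-coding promoters, and in 0 of 32 snRNA promoters. It was in 9 of 44 bound hosts and 10 of 48 unbound ones, 20.5% and 20.8%. Motif 1, searched as GGTCACACT, was in 8 of 92 host promoters (8.7%) against 6.05%, in 5 of 44 bound and 3 of 48 unbound hosts, and in 0 of 32 snRNA promoters. The E-box CAGCTG was in 9 of 92 (9.78%) against 17.7%, and the TATA box TATAAA in 43 of 92 (46.7%) against 45.8%. The TATA box was in 15 of 32 snRNA promoters on either strand, and TATA letters on the gene strand 16 to 50 bp upstream were found at 5, namely 7SKa, the 3 U6 genes and U6atac.

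Genes for the proteins that work with these RNAs were read the same way, from lists written by hand. Of 47 genes 16 were bound (34.0%), beside 17.9% of protein-coding genes, and at 5 of the 16 the summit was nearer to the start of another gene. Of the core proteins of snoRNA particles 1 of 8 was bound, NHP2 of the box H/ACA particle, with a relative signal of 1.06 ± 0.217 (SD, n = 2). The methyltransferase gene Fib (160), its partners Nop56 (54.3) and nop5 (97.2), and the pseudouridine synthase gene Nop60B (132) had pooled signals below the threshold. Of Sm and Lsm genes 2 of 9 were bound, SmD3 at 0.728 ± 0.289 and SNRPG at 0.847 ± 0.0771 (SD, n = 2 each). The summit at SNRPG was nearer to the start of mthl1.

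Of 6 genes of snRNP-specific proteins 4 were bound, beside 17.9% of all protein-coding genes. snRNP-U1-70K, whose product binds the first stem-loop of U1, had the strongest peak of all lists, 189 bp upstream of its start. Its signal ranked with that of RpS4, with a pooled 15348 and relative signals of 47.9 in replicate 1 and 55.3 in replicate 2, while the U1 genes themselves had at most 0.444. snRNP-U1-C had 1.37 ± 0.465, U4-U6-60K 0.605 ± 0.0887 and snf, whose product serves in both the U1 and the U2 particle, 0.568 ± 0.115 (SD, n = 2 each). The summit at U4-U6-60K was nearer to the start of CG7564. Prp8 had no pooled summit and U2A had a pooled signal of 63.5. Of the SMN complex, which assembles Sm rings on snRNAs, 1 of 4 genes was bound, Smn at 0.672 ± 0.168 (SD, n = 2).

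Factors that transcribe or process snRNAs were listed too, and the share of 17.9% of all protein-coding genes applies to them as well. Beside it, a count of 0 in 3 does not set a list apart. Of SNAPc, the reader of the PSEA, 0 of 3 genes were bound, and Pbp45, Pbp49 and Pbp95 had pooled signals of 117, 67.0 and 119. Of the Integrator complex, which cleaves the 3' ends of snRNAs, 6 of 12 genes were bound. IntS6 had a relative signal of 1.43 ± 0.0115, IntS9 1.31 ± 0.0625, IntS10 0.836 ± 0.395, the endonuclease gene IntS11 0.784 ± 0.149, defl (IntS7) 0.678 ± 0.172 and IntS4 0.677 ± 0.199 (SD, n = 2 each). The summits of IntS6, IntS10 and IntS11 were nearer to the start of a neighbour. Of 5 genes of the 7SK particle and P-TEFb 2 were bound: bin3, which encodes the 7SK capping enzyme, at 2.25 ± 0.645 and CycT at 0.688 ± 0.327 (SD, n = 2 each). Hexim and Larp7 had pooled signals of 141 and 170.1, and Cdk9 had no pooled summit.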

How the data were processed

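Peak lists in narrowPeak format on dm6, made by the authors, were used: 1 relaxed list per library, 1 of the pooled libraries and the optimal IDR list. The deposited columns used were the signal, on the scale of the authors' caller, and the summit position within the peak. Per the deposited text, the lists derive from dm6 alignments and a control. Sources used here do not give the aligner, peak caller, IDR threshold or depth. The dm3 lists were not used.

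Gene starts, exons and biotypes came from Ensembl release 115 (BDGP 6.54) and sequence from RefSeq. The strongest summit within 500 bp of a start was taken, and any annotated start of hosts and pathway genes. A gene was nested when it lay in an intron of a transcript on the same strand. Relative signal used the strongest peak of each library that covers the summit. Intervals are exact binomial (Clopper-Pearson) at 95% and cover counting error only. As there is 1 group, no test between samples was made. Motifs were searched from 250 bases before to 50 after the outermost start. The class and binding calls were tested on simulated data. Alternatives were windows of 250 and 1000 bp, the stronger 1645 IDR peaks, peak intervals in place of summits, other definitions of nesting, the outermost start, and each replicate left out, where the 3290 strongest peaks of the other library replaced the IDR list.

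The genes named are every bound snRNA or snoRNA gene, every snRNA gene with a pooled peak, the 10 strongest snoRNA genes outside introns, the 12 strongest hosts, the 6 hosts with the most nested genes, bound pathway genes and CG18011. The genes and lists were chosen with earlier results of these data known. RNaseMRP:RNA, the genes that hold snRNA genes, and the unbound genes named beside the bound ones were added after their values were seen. Python 3.11.15, numpy 2.4.6, scipy 1.17.1 and matplotlib 3.10.9 were used.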

Additional observations from a re-analysis of the deposited data

How the results depend on the processing

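No paired analysis was possible because the samples form 1 group. The window around the start changed the counts most: with 1000 bp 1 snRNA gene and 41 nested snoRNA genes were bound, and with 250 bp 4 nested genes and 2 snoRNA genes outside introns. Among the stronger 1645 IDR peaks 12 other protein-coding hosts and 1 noncoding host were bound. The counts of bound hosts stayed within 1.5 times under the 7 alternatives run, from 30 to 49, and those of ribosomal protein hosts, run under 6, from 17 to 24. With replicate 1 or replicate 2 left out, the other counts were 0 for snRNA genes, 12 and 9 for nested snoRNA genes, 5 for those outside introns, and 14 and 11 of the 47 pathway genes. Depth and control are unknown, and 2 libraries give each SD 1 degree of freedom.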

Other observations

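An 8-base word, AGCTTTTG on either strand, was picked because it was the most frequent within 50 bp of the summits of the 150 strongest IDR peaks that lie at no snRNA, snoRNA or host gene, relative to windows 1000 bp to the left. It was in 37 of those 150 windows (24.7%) and in 1 of the shifted ones (0.667%). Since it was picked there, this is a description. In the IDR peaks past the 150 strongest it was in 1.69%, beside 0.669% of the shifted windows. Of all 3290 IDR peaks 91 held it (2.77%). Of the 13 IDR peaks at snRNA and snoRNA genes 0 held it, including those of Or-CD4 and Me18S-A1806, both among the strong ones. Beside a share of 2.77%, a count of 0 in 13 does not set these peaks apart. Of the 44 host peaks 2 held it (4.55%), those of RpS4 and drn.

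The peak of CG18011 had a relative signal of 236 ± 28.2 (SD, n = 2), against 56.6 at Or-CD4, the strongest of the snRNA and snoRNA genes.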
